A study of Rattus norvegicus with 2 samples.

Results

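Transcripts of the BMP, TGF-beta and Id signalling genes were examined in cultured rat oligodendrocyte precursor cells (OPCs), the dividing glia that give rise to myelinating oligodendrocytes. The members were all entries of the deposited table whose symbol named a BMP, GDF, TGF-beta or activin ligand, their receptors, Smads and Smurfs, secreted antagonists and binding proteins, or an Id protein. They numbered 69 of 17202 genes. The 2 groups were wild-type OPCs exposed for 2 days to 1 µM of the peptide amyloid-beta (Aβ) and wild-type OPCs given the solvent DMSO, with 1 library each. Per the labels the cells came from brain. The labels describe them both as adult and as coming from developing animals, and both titles carry an unexplained P1, so the age of the donors was left unstated here. With 1 library per group no difference has a replicate check, no test was run and no p-value was computed.

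BMP and TGF-beta ligands are secreted dimers that bring type I and type II receptor kinases together at the cell surface. The activated type I receptor phosphorylates receptor Smads, which join Smad4 and enter the nucleus. BMP receptors act through Smad1, Smad5 and Smad9, and TGF-beta and activin receptors through Smad2 and Smad3. Id proteins are classic BMP targets. They bind E proteins and keep basic helix-loop-helix factors such as Olig2 from DNA, and in OPC cultures BMP is known to hold back oligodendrocyte differentiation and favour astrocyte fates.

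The libraries held 15117102 estimated counts with Aβ and 15019416 with DMSO. All 8 OPC markers checked were measured. Their summed level was 2224 TPM (a level corrected for transcript length and library size) with Aβ and 2150 TPM with DMSO. By counts Gpr17 (ratio of Aβ over DMSO 1.17, 1.10 to 1.25), Pdgfra (1.08, 1.05 to 1.10) and Ptprz1 (1.01, 1.00005 to 1.03) were higher with Aβ. Olig2 and Cspg4 had ratios above 1, and Nkx2-2, Olig1 and Sox10 had ratios below 1, each with an interval that included 1. All 8 astrocyte markers were measured as well, at 1540 TPM with Aβ and 1472 TPM with DMSO, of which Gfap made up 839 TPM with Aβ and 793 TPM with DMSO. They did not all lie one way: Aldh1l1 was lower with Aβ, with 978 counts with Aβ against 1099 with DMSO (ratio 0.883, 0.809 to 0.963), and Aqp4, Sox9 and Gja1 had ratios below 1 by counts. Gfap (ratio 1.03, 1.01 to 1.05) and Slc1a3 (1.03, 1.002 to 1.05) were higher with Aβ, and Fgfr3 and Slc1a2 had ratios above 1. The 6 neuronal markers summed to 461 TPM with Aβ and 441 TPM with DMSO, of which Tubb3 made up 372 TPM with Aβ and 353 TPM with DMSO. The 6 oligodendrocyte markers summed to 60.4 TPM with Aβ and 58.0 TPM with DMSO. Microglial markers (8 of 8 listed, 9.78 TPM with Aβ and 11.9 TPM with DMSO), fibroblast and pericyte markers (6 of 7 listed, 6.19 TPM with Aβ and 5.22 TPM with DMSO) and endothelial markers (4 of 6 listed, 1.04 TPM with Aβ and 1.21 TPM with DMSO) were low. Lum and Rgs5 had 0 counts with Aβ, against 2 counts and 1 count with DMSO, and no marker listed was at 0 in both libraries. The part of these other cell types in the values below was not tested. In such bulk samples, fewer cells of a type and less RNA per cell cannot be told apart.

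Most measured members differed little between the libraries. Of the 69 members, 50 reached 1 CPM (a count scaled to library size) in at least 1 library and are called measured. The 19 others were 27.5% of members, while 21.5% of all genes were not measured. No measured member at 10 TPM or more in either library, of which there were 27, differed by more than 1.16-fold. In this group the ratio of Aβ over DMSO ran from 0.899 for Tgfbi to 1.16 for Acvr1b. Of the measured members 28 had a ratio above 1 (56.0%, beside 49.7% of all measured genes) and 22 below. The median log2 ratio was 0.024 for members, against -0.00081 over all 13505 measured genes. On the authors' TPM scale 34 members were above 1 and 16 below, and the median was 0.063 beside 0.037 for all genes. That scale put 6 members above 1 that lay below 1 by counts (Acvr1, Acvr2a, Fstl1, Gdf11, Inhbb and Smad2). Ratios below are of counts unless TPM is named, each with an exact 95% counting interval that does not cover variation between cultures.

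A rule of size counted members at least 1.2-fold apart whose interval left out 1. It took 3 of 50 measured members (6%), while the same rule took 4.78% of all measured genes. They were 2 of 50 higher with Aβ, beside 2.35% of measured genes, and 1 of 50 lower, beside 2.42%. The 3 were the co-receptor-like gene Tgfbr3l and Smad9, both higher with Aβ, and the BMP antagonist Chrdl1, lower with Aβ. Tgfbr3l and Smad9 had fractional estimated counts, which arise where reads are divided between genes. Among measured genes with whole counts, 3.33% met the rule, and Chrdl1 was the 1 of 45 such members that did. Members at least 2-fold apart numbered 1 of 50, namely Smad9, beside 0.674% of all measured genes. Smad9 passed the filter of 1 CPM through the Aβ library alone, so nothing is read from its place in these counts. Without it 2 of 49 measured members were at least 1.2-fold apart and 0 at least 2-fold.

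The interval alone left out 1 for 5 of 50 members (10%), beside 13.4% of measured genes. The interval lay above 1 for Bmpr1a, Tgfbr3l and Smad9 (3 of 50, beside 6.48%) and below 1 for Bmp1 and Chrdl1 (2 of 50, beside 6.89%). With TPM ratios it lay above 1 for 8 of 50 members, beside 13.4% of measured genes, and below 1 for 1, beside 4.23%. The 8 were Bmpr1a, Bmpr2, Acvr1b, Tgfbr3l, Smad1, Smad3, Smad9 and Fstl1, and the 1 was Chrdl1. The interval lay wholly within 1.5-fold for 35 members (70.0%), beside 80.1% of measured genes, and within 1.2-fold for 21 (42.0%), beside 48.3%.

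**Figure D1:**
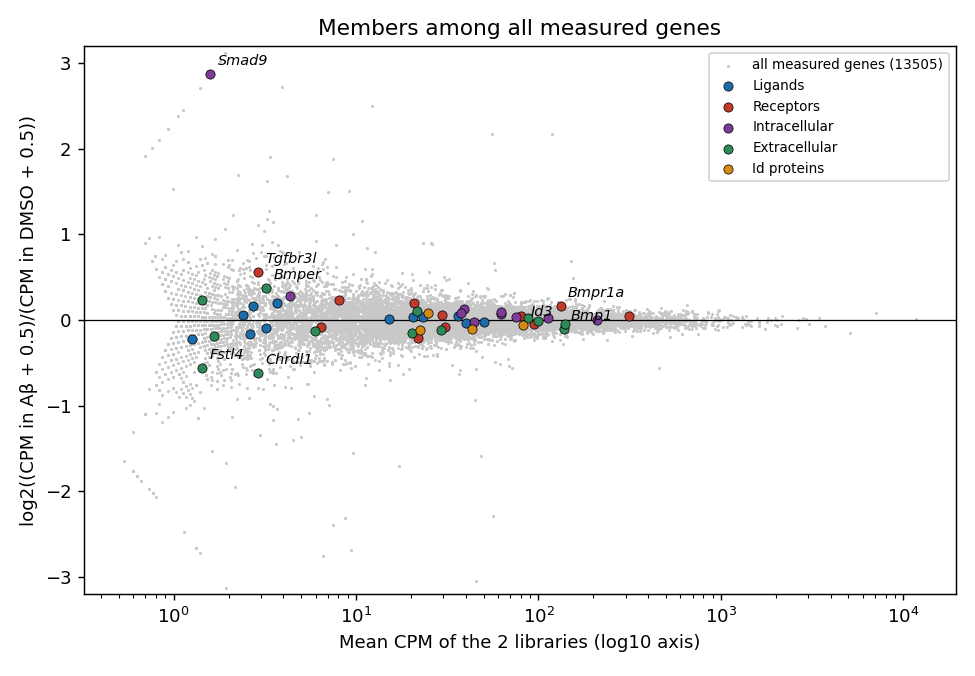
Log2 ratio of Aβ over DMSO (pseudocount 0.5 CPM) against the mean CPM of both libraries on a log10 axis, with the 50 measured members coloured by role over all 13505 measured genes in grey. All members but Smad9 lie between -0.61 and 0.56. Smad9 had 0 counts with DMSO, so its height reflects the pseudocount, and 11 genes fall outside the plotted range.

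Ligands were expressed at modest levels and none met a rule of size. Of 23 ligand and subunit genes, 12 were measured. The ratio was above 1 for 7 (58.3%, beside 49.7% of all measured genes) and below 1 for 5. The median log2 ratio of the 12 was 0.020. The leading 4 entries, Gdf1, Inhbb, Gdf11 and Bmp7, were each above 10 TPM in both libraries. Gdf1, a ligand of early left-right patterning, was listed at 22.5 TPM with Aβ and 21.2 TPM with DMSO. Its counts, 558.5 with Aβ and 535.5 with DMSO, equalled those of Cers1, a ceramide synthase at the same RefSeq locus, so the levels of these genes cannot be told apart. Inhbb, the subunit of activin B, stood at 20.2 TPM with Aβ and 20.1 TPM with DMSO (599 counts with Aβ against 607 with DMSO, ratio 0.979, 0.873 to 1.10). Gdf11, a relative of myostatin, stood at 19.3 TPM with Aβ and 19.2 TPM with DMSO (ratio 0.982, 0.887 to 1.09).

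Bmp7 led the BMP ligands, with 13.9 TPM with Aβ and 13.2 TPM with DMSO from 313 counts with Aβ and 303 with DMSO (ratio 1.02, 0.872 to 1.2). Bmp4, the ligand most used to divert OPCs in culture, had 60 counts with Aβ and 51 with DMSO, or 4.34 TPM with Aβ and 3.58 TPM with DMSO (ratio 1.17, 0.790 to 1.73). Bmp3 had 44 counts with Aβ and 38 with DMSO (ratio 1.15, 0.727 to 1.82), and Bmp2 17 counts with Aβ and 21 with DMSO (ratio 0.803, 0.398 to 1.60). The other BMP ligands, Bmp5, Bmp6, Bmp8a and Bmp8b, had between 0 and 5 counts in each library. Bmp7 was thus the BMP ligand with the highest level in each library, and its difference was smaller than its counting error.

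The TGF-beta ligands were led by Tgfb3 and Tgfb2, not by Tgfb1. Tgfb3 stood at 8.95 TPM with Aβ and 8.75 TPM with DMSO (ratio 1.00, 0.833 to 1.21), and Tgfb2 at 7.72 TPM with Aβ and 7.64 TPM with DMSO (ratio 1.02, 0.880 to 1.19). Tgfb1, an abundant ligand of microglia, had 37 counts with Aβ and 42 with DMSO, or 3.06 TPM with Aβ and 3.42 TPM with DMSO (ratio 0.874, 0.546 to 1.39). Summed, Tgfb2 and Tgfb3 were at 5.45 times the level of Tgfb1 with Aβ and 4.79 times with DMSO. Inhba, the subunit of activin A, was low at 0.59 TPM with Aβ and 0.54 TPM with DMSO, and Inha, the inhibin subunit, stood at 4.10 TPM with Aβ and 4.30 TPM with DMSO. Gdf15, a stress-induced cytokine, had 7.26 estimated counts with Aβ and 13.85 with DMSO and was below the level of measurement. Gdf5, Gdf6, Gdf7, Gdf9, Gdf10 and Inhbc were below it too, with between 0 and 7 counts in each library.

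**Figure D2:**
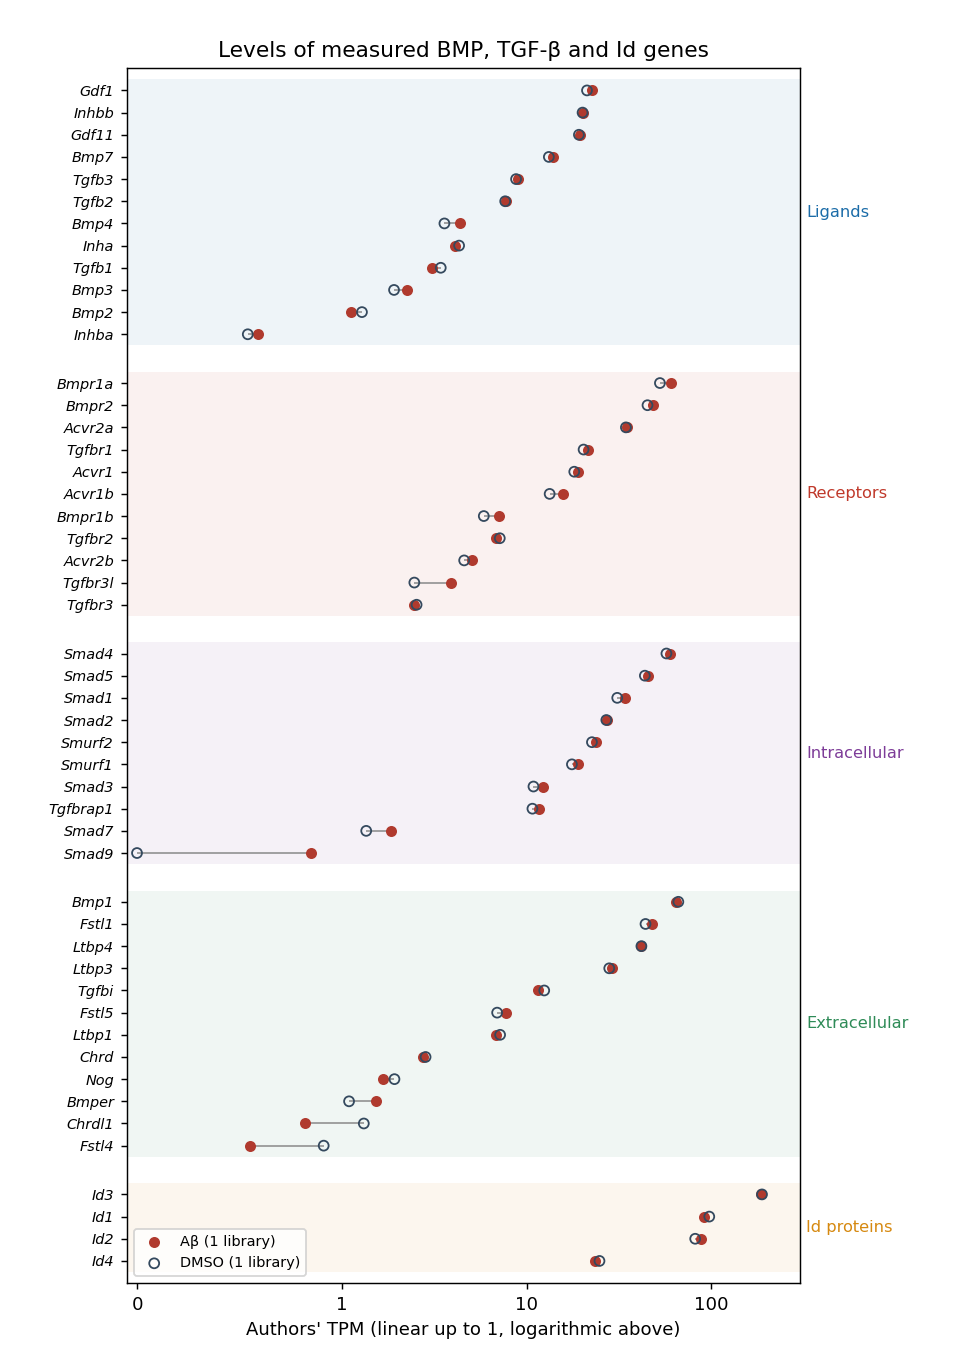
Level of the measured members, 1 left out, in TPM (linear up to 1 and logarithmic above), with filled points for the Aβ library and open points for the DMSO library, ordered by level within each role. Id3 is the highest at 185 TPM with Aβ and 188 TPM with DMSO, and Smad9 is listed at 0.85 TPM with Aβ and 0 with DMSO.

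Receptors were present for each branch of the pathway, and a BMP type I receptor was slightly higher with Aβ, beyond counting error. Of 14 receptor and co-receptor genes, 11 were measured. The ratio was above 1 for 7 (63.6%, beside 49.7% of all measured genes) and below 1 for 4. The median log2 ratio of the 11 was 0.050. Bmpr1a (Alk3), the main BMP type I receptor in these cells by level, stood at 60.2 TPM with Aβ and 52.6 TPM with DMSO. Its 2113 counts with Aβ against 1870 with DMSO gave a ratio of 1.12 (1.05 to 1.19), and 1.12 (1.05 to 1.19) with the trend by transcript length removed. Bmpr1a was the only member at 10 CPM or more whose interval lay above 1 by counts. Its close relative Bmpr1b (Alk6) stood at 7.10 TPM with Aβ and 5.85 TPM with DMSO (132 counts with Aβ against 110 with DMSO, ratio 1.19, 0.917 to 1.55). The level of Bmpr1a was 8.47 times that of Bmpr1b with Aβ and 8.99 times with DMSO. Acvr1 (Alk2) went the other way by counts, with 450 with Aβ and 471 with DMSO (ratio 0.948, 0.831 to 1.08), although its TPM was 19.0 with Aβ and 18.1 with DMSO. Acvrl1 (Alk1), the type I receptor of endothelium, had 0 counts with Aβ and 2 with DMSO.

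Type I receptors of the TGF-beta and activin branch were Tgfbr1 (Alk5) and Acvr1b (Alk4). Tgfbr1 stood at 21.6 TPM with Aβ and 20.3 TPM with DMSO (ratio 1.03, 0.955 to 1.12), with fractional counts of 1236.24 with Aβ and 1185.37 with DMSO. Acvr1b stood at 15.8 TPM with Aβ and 13.3 TPM with DMSO, from 339 counts with Aβ and 291 with DMSO. Its ratio of 1.16 (0.985 to 1.36) was the highest among members at 10 TPM or more, and its interval included 1 by counts. By TPM the ratio was 1.19 (1.01 to 1.39), an interval that left out 1. Acvr1c (Alk7) had 2 counts with Aβ and 3 with DMSO.

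Among type II receptors, Bmpr2 was the most abundant, with 48.0 TPM with Aβ and 45.1 TPM with DMSO. It had the most counts of any member, 4831 with Aβ and 4629 with DMSO, and a ratio of 1.04 (0.994 to 1.08). Acvr2a, shared by activins and BMPs, stood at 35.1 TPM with Aβ and 34.4 TPM with DMSO (ratio 0.972, 0.903 to 1.05), and Acvr2b at 5.04 TPM with Aβ and 4.58 TPM with DMSO (ratio 1.04, 0.910 to 1.19). Tgfbr2, the type II receptor that binds TGF-beta itself, had 306 counts with Aβ and 351 with DMSO, or 6.78 TPM with Aβ and 7.14 TPM with DMSO. Its ratio of 0.865 (0.739 to 1.01) was the lowest among the measured receptors, and its interval included 1. Bmpr2 was at 7.09 times the level of Tgfbr2 with Aβ and 6.31 times with DMSO. Type I and type II receptors summed to 11271 counts with Aβ and 10778 with DMSO (ratio 1.04, 1.01 to 1.07), a sum in which Bmpr2 weighs most. Bmpr1a was the only 1 of the 9 measured whose own interval left out 1 by counts. No sum was made without Bmpr1a, so a rise across the receptors is not read from it.

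Co-receptors were low. Tgfbr3 (betaglycan), which presents ligand to the receptors, had 94 counts with Aβ and 99 with DMSO (ratio 0.942, 0.703 to 1.26). Tgfbr3l, its relative, had 54.3 counts with Aβ and 34 with DMSO (ratio 1.58, 1.01 to 2.50). Bambi, a decoy receptor that BMP signalling itself induces, had 9 counts with Aβ and 6 with DMSO, below the level of measurement.

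**Figure D3:**
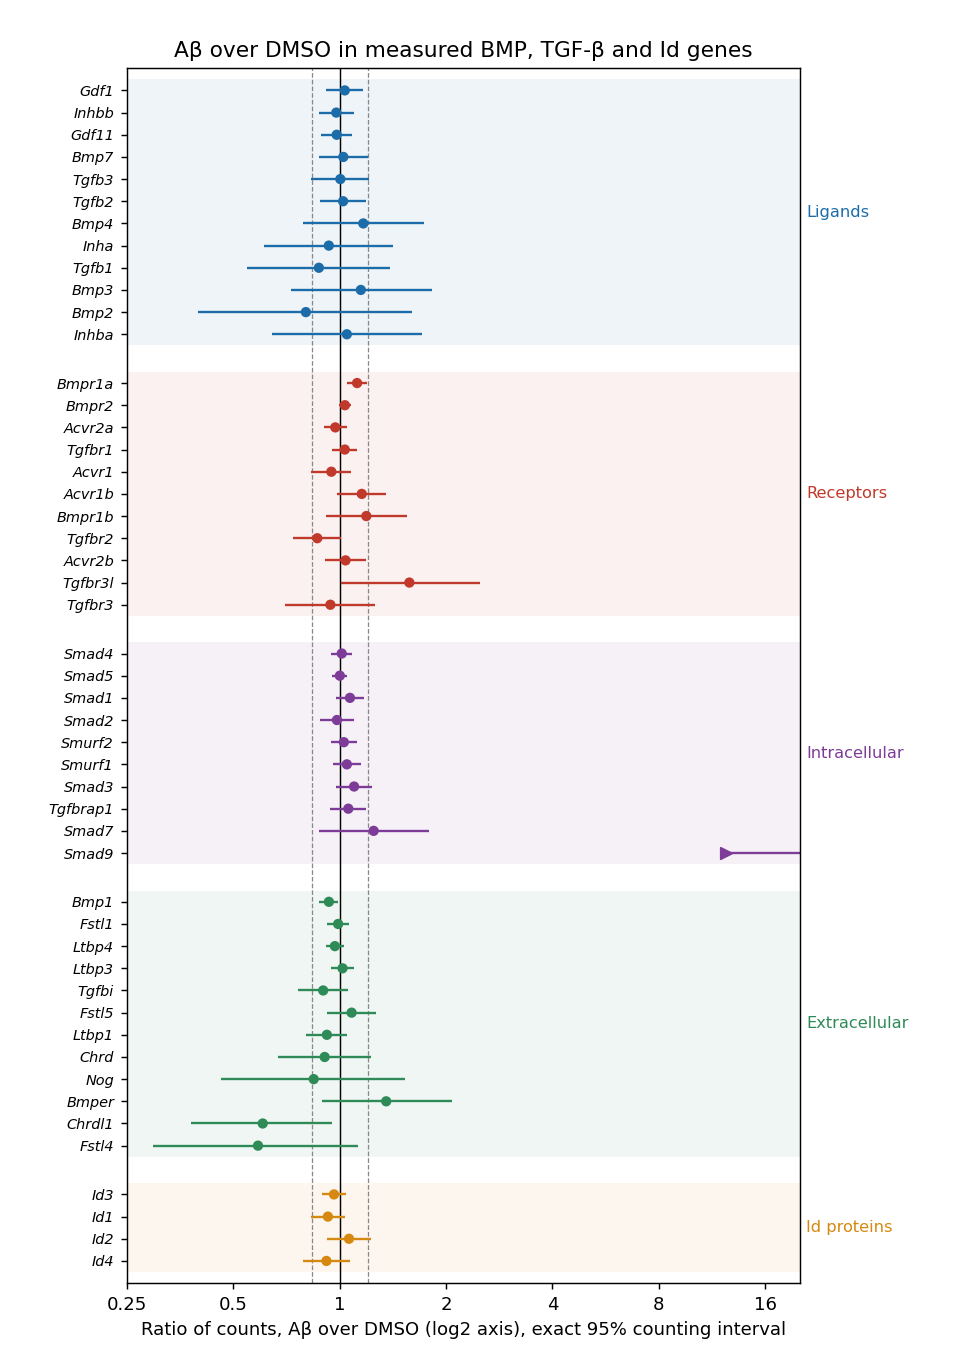
Ratio of counts, Aβ over DMSO, for the measured members, 1 left out, on a log2 axis, with lines for the exact 95% counting interval and dashed lines at 1.2-fold. Bmpr1a, Tgfbr3l and Smad9 lie above 1 with their intervals, Bmp1 and Chrdl1 below 1, and the triangle marks the lower limit of Smad9, whose DMSO count was 0.

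Inside the cell, the Smads of both branches were expressed. Without Smad9, whose direction the filter fixed, 8 of 9 measured intracellular members had a ratio above 1, while 49.7% of all measured genes did. With the length trend removed 7 of the 9 did, as Smad5, at a ratio of 1.00, came to 0.978. With Smad9 included, the summed counts of the 10 were 9964 with Aβ and 9577 with DMSO (ratio 1.03, 1.00 to 1.06). Since Smad9 adds counts to the Aβ sum alone, nothing is read from that interval. Smad4, the common partner, led at 59.5 TPM with Aβ and 57.1 TPM with DMSO (ratio 1.01, 0.948 to 1.09). The BMP receptor Smads followed, with Smad5 at 45.2 TPM with Aβ and 43.6 TPM with DMSO (3165 counts with Aβ against 3134 with DMSO, ratio 1.00, 0.953 to 1.05) and Smad1 at 33.9 TPM with Aβ and 30.9 TPM with DMSO (972 counts with Aβ against 901 with DMSO, ratio 1.07, 0.976 to 1.17). Of the TGF-beta and activin receptor Smads, Smad2 stood at 27.3 TPM with Aβ and 27.0 TPM with DMSO (ratio 0.983, 0.881 to 1.10) and Smad3 at 12.3 TPM with Aβ and 10.9 TPM with DMSO (ratio 1.10, 0.978 to 1.24). Smad1 and Smad5 together were at 2.00 times the level of Smad2 and Smad3 with Aβ and 1.97 times with DMSO.

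Smad9, the least used of the BMP Smads, was the member furthest apart. It had 48.08 estimated counts with Aβ (0.85 TPM) and 0 with DMSO. Set against a floor of 3 counts, the fold was 15.9, while the lower limit of its counting interval was 12.4. It was the 1 member that counted as measured through a single library, that with Aβ, so nothing is read from its place. The next gene in RefSeq, Rfxap, a subunit of the MHC class II regulator RFX, went the other way with 35.67 counts with Aβ and 61.88 with DMSO. Together they had 83.75 counts with Aβ and 61.88 with DMSO (ratio 1.34, 0.956 to 1.90).

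The inhibitory Smads, which BMP and TGF-beta induce as feedback, were low. Smad7 had 73 counts with Aβ and 58 with DMSO, or 1.85 TPM with Aβ and 1.35 TPM with DMSO (ratio 1.25, 0.872 to 1.79). Smad6, at 11 counts with Aβ and 7 with DMSO, was not measured. The ubiquitin ligases that remove Smads and receptors differed little, with Smurf2 at 23.8 TPM with Aβ and 22.5 TPM with DMSO (ratio 1.03, 0.946 to 1.12) and Smurf1 at 18.9 TPM with Aβ and 17.6 TPM with DMSO (ratio 1.05, 0.957 to 1.15). Tgfbrap1, which binds TGF-beta receptors and Smad4, stood at 11.6 TPM with Aβ and 10.7 TPM with DMSO (ratio 1.06, 0.941 to 1.19).

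Of 17 extracellular regulators, 13 were measured, with a median log2 ratio of -0.100. The ratio was above 1 for 4 (30.8%, beside 49.7% of all measured genes) and below 1 for 9. Their summed counts were 8208 with Aβ and 8407 with DMSO (ratio 0.968, 0.939 to 0.998). Of the 13, only Bmp1 and Chrdl1 had an interval of their own that left out 1. No sum was made without Bmp1, so a fall across these regulators is not read from it. By TPM all 17 summed to 218 TPM with Aβ and 217 TPM with DMSO, while the count sum covers the 13 measured. The TPM scale also raised the median log2 ratio of all measured genes to 0.037, so these sums are not set against each other. Bmp1, which is not a BMP ligand but the protease that cleaves procollagen and the antagonist chordin, was the most abundant of them at 64.3 TPM with Aβ and 66.2 TPM with DMSO. Its 2006 counts with Aβ against 2133 with DMSO gave a ratio of 0.933 (0.877 to 0.992), and by TPM the interval included 1. Latent TGF-beta binding proteins, which anchor inactive TGF-beta in the matrix, were led by Ltbp4 at 41.7 TPM with Aβ and 41.8 TPM with DMSO (ratio 0.970, 0.913 to 1.03). Ltbp3 stood at 29.1 TPM with Aβ and 28.0 TPM with DMSO (ratio 1.02, 0.944 to 1.10), Ltbp1 at 6.79 TPM with Aβ and 7.17 TPM with DMSO (ratio 0.921, 0.805 to 1.05). Ltbp2 had 5 counts with Aβ and 3 with DMSO. Tgfbi, a matrix protein named for its induction by TGF-beta, stood at 11.5 TPM with Aβ and 12.4 TPM with DMSO (ratio 0.899, 0.764 to 1.06).

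Secreted antagonists were scarce, with 8 genes summing to 8.44 TPM with Aβ and 9.42 TPM with DMSO. Chrdl1, a chordin-like BMP antagonist that astrocytes secrete, had 33 counts with Aβ and 54 with DMSO (ratio 0.606, 0.381 to 0.952), or 0.82 TPM with Aβ and 1.31 TPM with DMSO. Astrocyte markers lay both ways, with Aldh1l1 lower with Aβ (ratio 0.883) and Gfap (1.03) and Slc1a3 (1.03) higher. The part of astrocytes in the value of Chrdl1 was not tested. Chrd (chordin) had 86 counts with Aβ and 94 with DMSO (ratio 0.907, 0.669 to 1.23). Nog (noggin), the antagonist used to relieve BMP inhibition of OPCs, had 23 estimated counts with Aβ and 27.12 with DMSO (ratio 0.845, 0.463 to 1.53). Bmper, a chordin-like modulator, had 56 counts with Aβ against 41 with DMSO (ratio 1.35, 0.889 to 2.08). Chrdl2 (3 counts with Aβ against 12 with DMSO), Grem1 (5 with Aβ against 9 with DMSO) and Fst (follistatin, which traps activins, 13 in each) were not measured. In the follistatin-like family Fstl1 was abundant at 47.6 TPM with Aβ and 44.0 TPM with DMSO. By counts it did not differ beyond counting error, with 1500 with Aβ and 1502 with DMSO (ratio 0.991, 0.922 to 1.06), while its interval lay above 1 on the TPM scale. Fstl5 had 338 counts with Aβ and 310 with DMSO (ratio 1.08, 0.924 to 1.27) and Fstl4 16 with Aβ and 27 with DMSO (ratio 0.588, 0.296 to 1.13).

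Id3, Id1 and Id2 had the highest TPM of the module in both libraries. Of the 4 Id genes, 3 had a ratio below 1 and 1 above (25%, beside 49.7% of all measured genes). Together the 4 Id genes made up 32.9% of the summed TPM of all members with Aβ and 34.2% with DMSO. Id3 was the highest member, with 185 TPM with Aβ and 188 TPM with DMSO, at rank 794 of all genes by TPM with Aβ and rank 768 with DMSO. Id1 stood at 91.5 TPM with Aβ and 97.4 TPM with DMSO, and Id2 at 88.2 TPM with Aβ and 81.7 TPM with DMSO. Id4, which is known for restraining oligodendrocyte differentiation, stood at 23.3 TPM with Aβ and 24.8 TPM with DMSO. The 4 intervals all included 1 and lay within 1.5-fold. The ratio was 0.964 (0.890 to 1.04) for Id3, 0.927 (0.830 to 1.03) for Id1, 1.06 (0.919 to 1.23) for Id2 and 0.918 (0.787 to 1.07) for Id4. With the length trend removed it was 0.980 for Id3, 0.942 for Id1, 1.09 for Id2 and 0.925 for Id4. All 4 intervals then included 1 too. Summed, the Id genes had 2557 counts with Aβ and 2636 with DMSO (ratio 0.962, 0.911 to 1.02).

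Promoters are shown for the 4 Id genes, classic BMP targets, and for the feedback inhibitor Smad7. RefSeq windows on the rat build GRCr8 were found for 55 of 69 members (60 windows, as some genes have more than 1). Each sequence below is the 250 bases before the start on the gene's strand. Capitals mark matches on either strand to GGCGCC, a GC-rich element bound by BMP Smads, to CAGAC, the Smad3 and Smad4 element, or to TATAA, the core of the TATA box, which was chosen after the sequences were seen.
Id1, chr3:161671314-161671563, plus strand: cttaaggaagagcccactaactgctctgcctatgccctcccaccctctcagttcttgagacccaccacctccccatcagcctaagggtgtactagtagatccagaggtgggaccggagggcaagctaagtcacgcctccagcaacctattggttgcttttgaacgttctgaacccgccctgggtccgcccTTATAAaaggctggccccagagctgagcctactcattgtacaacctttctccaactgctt
Id2, chr6:47470996-47471245, minus strand: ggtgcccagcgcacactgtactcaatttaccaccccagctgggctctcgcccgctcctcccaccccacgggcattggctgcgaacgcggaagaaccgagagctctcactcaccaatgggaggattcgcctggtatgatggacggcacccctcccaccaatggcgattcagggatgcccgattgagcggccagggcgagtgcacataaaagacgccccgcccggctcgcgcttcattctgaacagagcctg
Id3, chr5:153656041-153656290, plus strand: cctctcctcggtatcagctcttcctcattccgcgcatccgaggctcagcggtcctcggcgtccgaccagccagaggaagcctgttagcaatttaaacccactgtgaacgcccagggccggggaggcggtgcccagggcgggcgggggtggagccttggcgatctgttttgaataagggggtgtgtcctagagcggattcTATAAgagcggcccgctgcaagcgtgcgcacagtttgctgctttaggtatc
Id4, chr17:16598294-16598543, minus strand: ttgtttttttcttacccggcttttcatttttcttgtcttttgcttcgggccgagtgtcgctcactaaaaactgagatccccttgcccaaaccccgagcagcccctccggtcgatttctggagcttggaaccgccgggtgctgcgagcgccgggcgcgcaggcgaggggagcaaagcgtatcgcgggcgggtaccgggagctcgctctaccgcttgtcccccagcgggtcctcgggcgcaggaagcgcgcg
Smad7, chr18:71263258-71263507, plus strand: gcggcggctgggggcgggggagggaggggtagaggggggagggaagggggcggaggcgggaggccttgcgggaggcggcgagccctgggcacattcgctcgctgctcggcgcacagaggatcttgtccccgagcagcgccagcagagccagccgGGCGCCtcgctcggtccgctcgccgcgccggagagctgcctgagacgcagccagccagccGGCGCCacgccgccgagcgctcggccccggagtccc
GGCGCC occurred 2 times in the Smad7 window and in none of the Id windows, and CAGAC in none of the 5. TATAA was found in the windows of Id1, in 2 overlapping matches on opposite strands, and of Id3. Across members GGCGCC was present in 26.7% of 60 windows, CAGAC in 26.7% and TATAA in 13.3%. In the windows of all 21851 protein-coding entries the shares were 11.1%, 42.6% and 22.2%. The median GC content was 65.2% for members and 54.0% for protein-coding entries, and the part of GC content in these shares was not tested. A match describes the letters and does not show a bound site. Only these 250 bases were searched, so a window without a match does not show that the gene lacks the element.

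Several members shared estimated counts with a neighbour, and 6 of 69 had fractional counts in at least 1 library. Nog and LOC102547753, which overlap in RefSeq, summed to whole numbers, 48 counts with Aβ and 51 with DMSO. So did Gdf15 and the overlapping Lrrc25, with 26 counts with Aβ and 39 with DMSO (ratio of sums 0.661, 0.386 to 1.11). Tgfbr3l and Snapc2, its near neighbour, summed to 3443 with Aβ and 3474 with DMSO (ratio of sums 0.983, 0.937 to 1.03), so the 54.3 counts of Tgfbr3l with Aβ and 34 with DMSO are a small share of the pair. The sum for Smad9 and Rfxap was not whole. No neighbour was paired with Tgfbr1. All 5 pairs, Gdf1 with Cers1 included, had summed intervals that included 1.

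**Figure D4:**
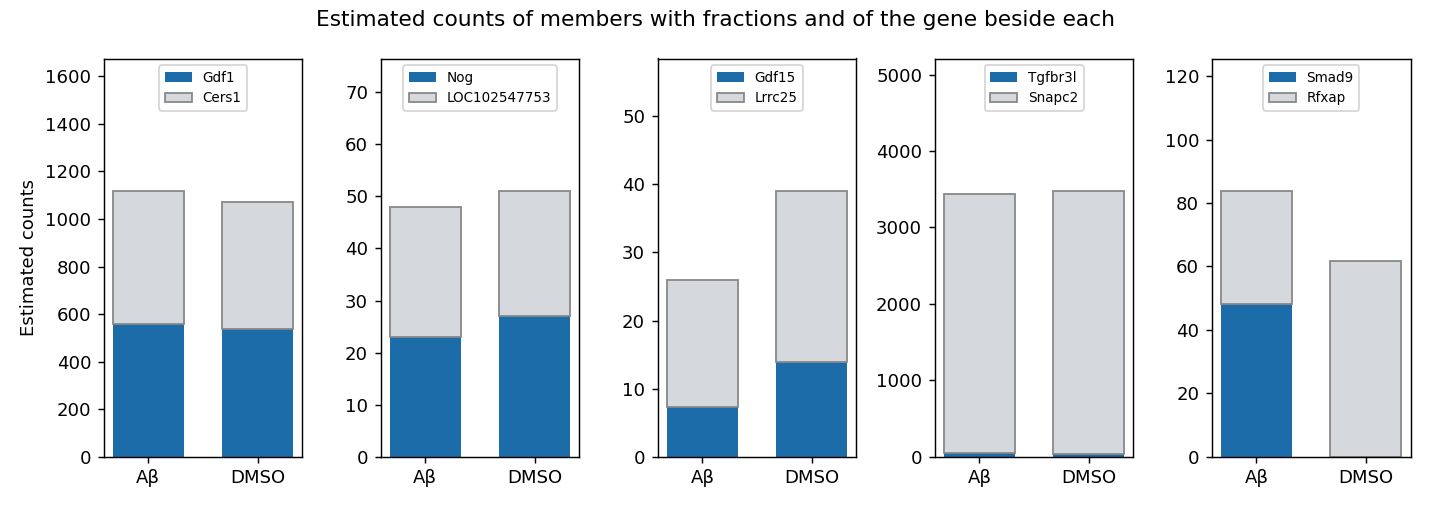
Estimated counts of 5 members with fractional counts (blue) stacked under those of the gene beside each (grey), in the Aβ library and the DMSO library, with each axis starting at 0. The summed heights are close in Aβ and DMSO for Gdf1, Nog and Tgfbr3l (1117 with Aβ and 1071 with DMSO, 48 with Aβ and 51 with DMSO, and 3443 with Aβ and 3474 with DMSO), and the blue part of Smad9 is present with Aβ alone.

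Further genes of the pathway, taken from a list of 64 regulators, cofactors and targets outside the module, were at similar levels in both libraries. Of these, 50 were measured, 29 above 1 (58%, beside 49.7% of all measured genes) and 21 below. None met the 1.2-fold rule that 4.78% of all measured genes met. Their median log2 ratio was 0.014. The interval lay above 1 for 3 of 50, beside 6.48% of all measured genes, and below 1 for 2, beside 6.89%. Tcf4, an E protein that Id proteins bind, had 959 counts with Aβ and 812 with DMSO (ratio 1.17, 1.07 to 1.29). The interval also left out 1 for Usp9x (1.06, 1.02 to 1.10), a deubiquitinase of Smad4, for Itgb8 (1.06, 1.01 to 1.10) and Itgav (0.950, 0.915 to 0.987), integrin chains that activate latent TGF-beta, and for Fkbp1a (0.962, 0.934 to 0.991), which holds type I receptors inactive. These 4 were named after their values were seen. Among the furthest of the list by log2 ratio were Kcp (12 counts with Aβ and 18 with DMSO, ratio 0.661, 0.291 to 1.45), Hes1, a Notch target (122 counts with Aβ and 147 with DMSO, 0.823, 0.642 to 1.05), Runx2, a partner of Smads (25 counts with Aβ and 20 with DMSO, 1.24, 0.661 to 2.35), Tcf4 and Tgfb1i1 (233 counts with Aβ and 261 with DMSO, 0.885, 0.739 to 1.06).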

How the data were processed

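RNA sequencing libraries of 1 culture with Aβ and 1 with DMSO were analysed from the authors' deposited table of 17202 genes. Bowtie2 and the build Rnor_6.0 were listed, without roles, per the submitters' processing notes, and the sources used here do not give the quantifier, annotation or strand setting. The authors' estimated counts (expected counts) were rounded to whole numbers. The authors' TPM and FPKM values, per the file headers, are scaled for transcript length, and TPM was used for levels. The deposited signal column of normalized read counts was the rounded-up count over a constant, 1.00 for Aβ and 0.998 for DMSO, and was not used. 

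CPM and ratios used effective library sizes by TMM (edgeR 4.0.16, R 4.3.3). Ratios carry exact 95% intervals by the Clopper-Pearson method, given a gene's total over both libraries. Log2 ratios used a pseudocount of 0.5 CPM, which understates differences of low genes. Genes at 1 CPM or more in 1 library were measured. The rules of size were 1.2-fold, or 2-fold on the log2 scale, with an interval leaving out 1. A count of 0 was set against 3 counts. The method was run on simulated data with counting error alone. That run cannot show how the intervals do with variation between cultures or with reads shared between genes. Members at 10 TPM or more, members past a rule of size and Id genes were named with values, as were up to 6 further pathway genes with the largest log2 ratio. Some genes that these rules take are not reported here. Members and lists were chosen with earlier results of these data known. RefSeq IDs and symbols matched for all 69 members. Alternatives were DESeq2 1.42.0 size factors, total counts, TPM, FPKM, other pseudocounts and filters, whole counts alone and, added after seeing the data, removal of the length trend and counts without Smad9.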

Additional observations from a re-analysis of the deposited data

How the results depend on the processing

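The number of members at least 1.2-fold apart was 3 under both other scalings, TPM and removal of the length trend, and 4 with no filter. It was 0 at 10 CPM or more and 1 with whole counts alone. Members at least 2-fold apart numbered 1, and 0 with either of those 2 restrictions or without Smad9. Intervals leaving out 1 numbered 5 (3 above and 2 below), against 9 with TPM (8 above and 1 below), 2 at 10 CPM (1 above and 1 below) and 3 with whole counts (1 above and 2 below). Fewer genes enter the restricted counts, and TPM raised the median of all genes. The median log2 ratio of members ran from 0.0024 with no filter to 0.063 with TPM, and that of the further pathway genes from 0.0097 to 0.049. With Smad9 set at its bound the median of members was still 0.024. Summed member levels with Aβ over DMSO were 1.03 by TPM and 1.00 by FPKM, whose totals were 702073 and 721682. Of 29 named members, Fstl1 moved beyond its counting interval under 1 alternative, TPM (log2 ratio 0.11), and neither Tgfbr3l nor Chrdl1 changed sign. Smad9, at 0 counts with DMSO, was left out of these ratios because its fitted value reflects the pseudocount. Depth limits low members, and the 19 that were not measured had at most 13.85 counts in each library. No paired analysis was possible because each group has 1 library. No replicate could be left out for the same reason.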
